A study of Homo sapiens with 9 samples.

Results

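The arrays of PC9 cells treated with siALKBH5#3 were compared with those of cells treated with siControl across the whole transcriptome, by signal level and by gene family. The comparison used 6 of the 9 arrays of the series, 3 in each group, and all 21448 transcript clusters of the Clariom S platform (sets of probes that report 1 transcript unit each), with control probe sets left out. PC9 is a human lung adenocarcinoma line that depends on an activating EGFR deletion. Cells of both groups were transfected with siRNA at 15 nM and taken for RNA 96 h later, so the controls also carried transfection reagent and an siRNA. siALKBH5#3 is a single siRNA sequence against ALKBH5, and siControl is the negative control siRNA that the study calls siNC. The 3 samples per group are labelled biological replicates, but the separation of their cultures is not described, and the p-values speak only to the spread among arrays. That spread was estimated within groups over all 9 arrays, so the siALKBH5#1 arrays contribute to it. Effects of ALKBH5 loss and effects of the siRNA sequence on other transcripts cannot be told apart in this comparison.

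ALKBH5 is an enzyme that takes the methyl group off N6-methyladenosine, an internal mark of mRNA that reader proteins use to set how long a transcript lasts and how well it is translated. An siRNA is loaded into an Argonaute protein and guides it to a matching transcript, which is then cut. Gene families that work in the same machine or pathway (a respiratory complex, a set of transporters, a chaperone class) can be read together on an array, since many small shifts in the same direction may each be too small to stand out among the largest changes.

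ALKBH5 was examined first as a check of the labels. Its intensity was 2815, 3308 and 2361 on the siControl arrays and 56.8, 30.0 and 34.8 on the siALKBH5#3 arrays. The groups did not overlap, and 1.43% ± 0.505 of the mean siControl signal was left (SD, n = 3). Median intensities of 103 to 105 were seen on the 6 arrays, and arrays of a group correlated at a Pearson's r of 0.994 to 0.997 over clusters, against 0.989 to 0.991 for arrays of different groups (log2 intensities). Of 9 markers of the lung adenocarcinoma line, 7 were in the brightest quintile of clusters, and their summed intensity was 401986 to 407502 in siControl and 400224 to 406506 with siALKBH5#3. Markers of immune cells summed to 3683 to 4032 in siControl and 4662 to 5000 with siALKBH5#3, and 8 of 9 lay below the median of the arrays. Fibroblast markers summed to 397 to 436 and 370 to 446, with 6 of 7 below the median, and endothelial markers to 10776 to 14086 and 13615 to 15556, with 6 of 9 below it. These sums follow the brightest members, and 1 immune and 1 endothelial marker lay in the brightest quintile. The median log2 fold change was -0.10 for immune, -0.03 for fibroblast and -0.16 for endothelial markers. Values above 0 were seen for 2 of 9, 1 of 7 and 3 of 9 of them. No immune or fibroblast marker was called. Of the line markers EGFR was higher (0.39 on the log2 scale), a call that ended in 5 of the 6 fits with 1 array left out (adjusted p = 0.0765 to 0.145). The endothelial marker PECAM1 was lower (log2 fold change -0.88 ± 0.15, SE). In RNA from a whole culture, fewer cells of a type and less RNA per cell cannot be told apart.

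Clusters with an adjusted p below 0.05 in limma count as called, with adjustment over all 21448 clusters. With siALKBH5#3, 3381 clusters (15.8%) were called, 1870 higher (8.72%) and 1511 lower (7.04%), and 2099 of them changed more than 1.5-fold. The arrays of the groups did not overlap for 7004 clusters (32.7%). Among the 17687 genes with a symbol, the background for every family count below, 2968 were called (16.8%), 1656 higher (9.36%) and 1312 lower (7.42%). The median log2 fold change over all clusters was -0.02. When each of the 6 arrays was left out in turn, 1630 genes (9.22%) were called whichever array was missing, 928 higher (5.25%) and 702 lower (3.97%). These are referred to as stable calls.

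To see where in the range of signal the calls lay, the clusters were split into quintiles, 5 classes of equal size, by their mean log2 intensity over the 9 arrays. Signal is not abundance, because probes differ in brightness, so it is used here only to rank how well a cluster could be measured. Calls were few among dim clusters: 81 of 4290 in the dimmest quintile (1.89%), 201 in the second (4.69%) and 669 in the third (15.6%). The brightest quintiles had 1207 (28.1%) and 1223 (28.5%). The direction also moved with signal, since 29.6% of the calls in the dimmest quintile were higher with siALKBH5#3, against 37.8% in the second, 57.4% in the third, 59.1% in the fourth and 55.0% in the brightest. The median standard error was 0.15, 0.16, 0.16, 0.14 and 0.12 on the log2 scale from the dimmest to the brightest quintile. Without siALKBH5#3 replicate 1 or 2 the dimmest quintile had 49 or 36 calls, and without replicate 2 the second and the third quintile had 125 and 441.

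A cluster that was not called is not thereby shown to be unchanged, so the 95% confidence intervals were read as well. The interval lay within 1.5-fold in either direction for 72.4% of the dimmest clusters, 58.9% of the second quintile, 44.9% of the third, 45.5% of the fourth and 58.7% of the brightest, 12032 clusters in all (56.1%). Background signal was not measured here, so in the dimmest quintile a narrow interval bounds the signal and does not show that the transcript was unchanged. Another 6045 clusters (28.2%) were neither called nor bounded in this way. Their share was 39.5% in the third quintile and 13% in the brightest. Of the calls, 58% were under 1.5-fold in the dimmest quintile, 37.3% in the second, 27.4% in the third, 33.1% in the fourth and 47.3% in the brightest. The plot of calls by signal level shows these shares.

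**Figure D1:**
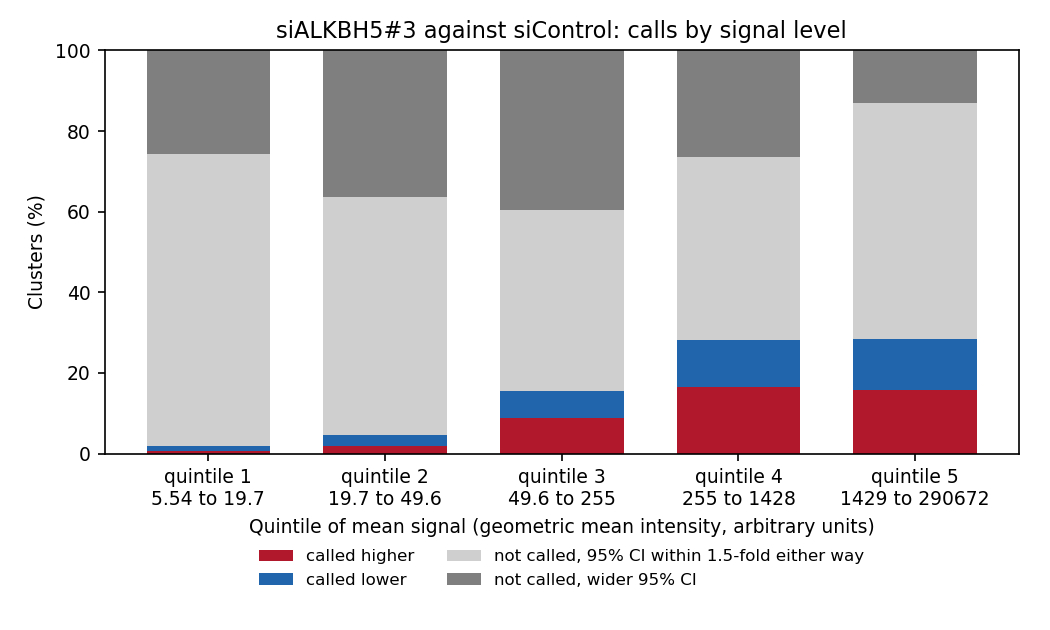
Share of clusters (%) called higher, called lower, not called with a 95% confidence interval within 1.5-fold either way, or not called with a wider interval, in each quintile of mean signal (geometric mean intensity, arbitrary units). The called share was 1.89% in the dimmest quintile and 28.5% in the brightest.

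Some clusters of the dimmest quintile also separated the groups. Whether signals in this range lay above background was not analysed here, so folds that start or end there are folds of signal and may not give the size of the change in transcript. MRAS, a RAS-related GTPase, had intensities of 14.2, 10.9 and 10.7 in siControl and 37.7, 29.1 and 42.6 with siALKBH5#3, a signal 3.04-fold higher (95% confidence interval 2.39 to 3.88, adjusted p = 6.19e-05). All 3 siALKBH5#3 values lay above the siControl values. The TCF family transcription factor TCF7L1 rose 1.93-fold (1.58 to 2.36), and the tight junction protein CLDN8 fell 1.86-fold (1.49 to 2.33). In the second quintile THBD, the endothelial and epithelial thrombin receptor thrombomodulin, stood at 20.6, 21.4 and 20.8 in siControl and at 73.6, 81.9 and 78.1 with siALKBH5#3 (3.71-fold higher, 3.16 to 4.36, adjusted p = 1.88e-06). CASP14, a caspase of keratinocyte differentiation, went the other way, from 120, 105 and 47.3 to 18.2, 18.4 and 18.0 (4.61-fold lower, 3.05 to 6.99, adjusted p = 0.000274). The groups did not overlap for either gene, although the siControl arrays of CASP14 were spread more than 2-fold.

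Among the brightest clusters, those called lower included LDHA, the lactate dehydrogenase subunit that regenerates NAD for glycolysis, the aldo-keto reductase AKR1C3, the membrane glutathione transferase MGST1 and COX8A, a subunit of cytochrome c oxidase. LDHA had intensities of 109681, 113778 and 93193 in siControl and 59826, 68048 and 60201 with siALKBH5#3 (1.68-fold lower, 1.39 to 2.03, adjusted p = 0.00188). COX8A went from 79456, 74283 and 74056 to 47453, 48159 and 47800 (1.59-fold lower, 1.35 to 1.87, adjusted p = 0.00147). Neither gene's groups overlapped. ANXA1, of the same signal range, had a log2 fold change of -0.35 ± 0.10 and was not called when any of the 6 arrays was left out (adjusted p = 0.0629 to 0.110).

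Among bright clusters called higher, SLC3A2 and SLC7A5 encode the chains of the large neutral amino acid exchanger. SLC7A5 had intensities of 35593, 32961 and 40171 in siControl and 86418, 89754 and 84378 with siALKBH5#3 (2.40-fold higher, 2.02 to 2.86, adjusted p = 3.61e-05). SLC3A2 went from 58908, 54738 and 52313 to 88411, 89939 and 89008 (1.61-fold higher, 1.37 to 1.89, adjusted p = 0.00109). Both genes were higher on all 3 siALKBH5#3 arrays. RCN1, a calcium-binding protein of the secretory pathway, rose 1.44-fold (1.20 to 1.73). RPN1 and the nuclear ribonucleoprotein HNRNPU rose by 0.33 ± 0.10 and 0.41 ± 0.11 on the log2 scale, calls that ended in 6 and 4 of the 6 leave-out fits (adjusted p = 0.0680 to 0.124 for RPN1 and 0.0515 to 0.103 for HNRNPU).

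Single genes of regulatory machinery also moved. AGO2, the Argonaute that cleaves the targets of siRNAs, had intensities of 1007, 1204 and 1212 in siControl and 2924, 4031 and 3947 with siALKBH5#3 (3.16-fold higher, 2.53 to 3.95, adjusted p = 3.18e-05). All 3 siALKBH5#3 arrays were above the siControl arrays. Among 15 genes of the RNA interference machinery, AGO2 was a stable call higher, and PRKRA, a partner of Dicer, and TNRC6B, a scaffold of silencing complexes, were stable calls lower (log2 fold changes -0.74 ± 0.14 and -0.60 ± 0.13). CDKN2A, the locus of the cell cycle inhibitor p16, went from 22722, 15766 and 19052 to 6798, 6364 and 5497 (3.06-fold lower, 2.42 to 3.88, adjusted p = 5.35e-05). The plot of intensities by array shows AGO2, CDKN2A and 14 other genes described here.

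**Figure D2:**
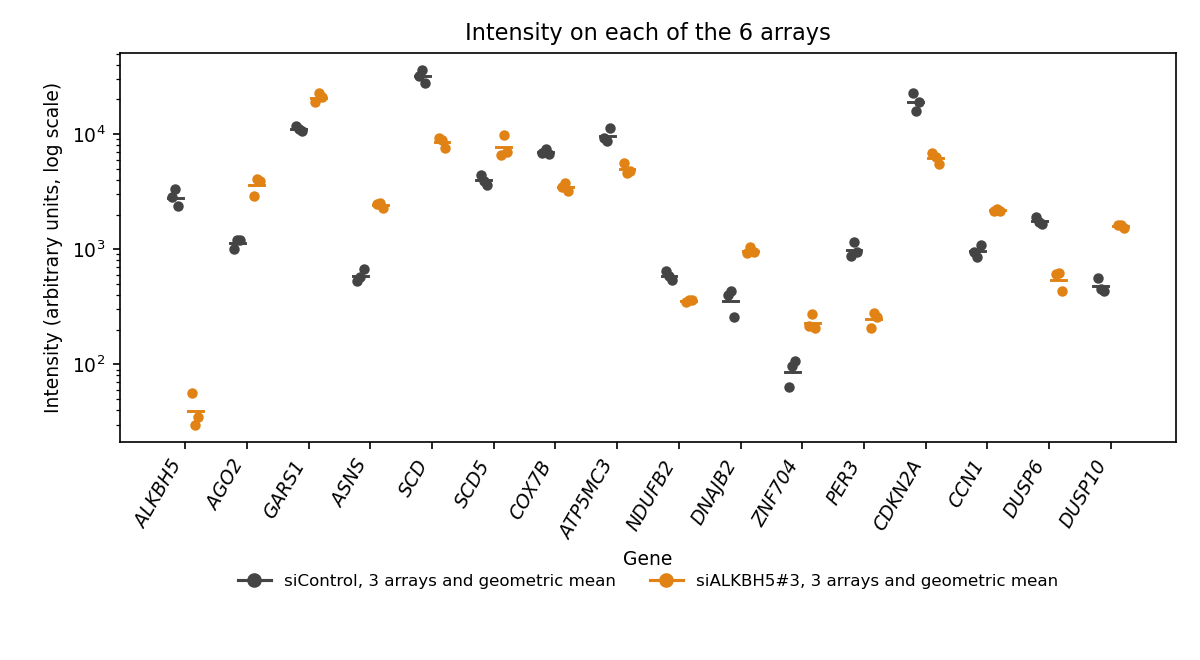
Intensity (arbitrary units, log scale) of 16 genes on each of the 3 siControl and 3 siALKBH5#3 arrays, with points for arrays and lines for geometric means. The siControl and siALKBH5#3 points of each gene do not overlap.

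Enzymes that charge transfer RNAs with amino acids are controlled in mammalian cells partly by ATF4, a factor induced when amino acids run short, which binds a short composite element in their promoters. Of 16 cytosolic aminoacyl-tRNA synthetases, 6 rose and 3 fell (median log2 fold change 0.31), and 5 of the rises were stable: GARS1, YARS1, SARS1, AARS1 and WARS1. GARS1, for glycine, had intensities of 11647, 10976 and 10621 in siControl and 18860, 22564 and 20797 with siALKBH5#3 (1.87-fold higher, 1.56 to 2.24, adjusted p = 0.000439). YARS1, for tyrosine, had 2789, 2813 and 3070 against 5781, 5056 and 5238 (1.85-fold higher, 1.56 to 2.20, adjusted p = 0.000334). The groups did not overlap for either gene. LARS1, RARS1 and HARS1, for leucine, arginine and histidine, had log2 fold changes of -0.56 ± 0.15, -0.52 ± 0.14 and -0.43 ± 0.11, and each lost its call in 3 or 4 leave-out fits (adjusted p = 0.0558 to 0.101). Of 15 mitochondrial synthetases 1 was called, lower, and the intervals of 12 lay within 1.5-fold.

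The element TGATGNAA was searched on both strands of the RefSeq promoters (GRCh38.p14, 250 bases before to 50 after the gene start), of which 14250 matched a measured gene by gene ID. It was found in 359 of them (2.52%), in 5 of the 14 cytosolic synthetases with a promoter and in 3 of 10 genes of asparagine, proline and glutamine metabolism. Among ATF4 and stress response factors it was in 5 of 22, and among SLC amino acid transporters in 4 of 37. Serine and one-carbon enzymes had it in 1 of 16 and mitochondrial synthetases in 1 of 13. The match is printed for those 5 synthetases, for ASNS and BCAT1, which moved in opposite directions, and for the cationic amino acid transporter SLC7A1, in capitals on the strand of the gene. Some matches read as the reverse complement.
AARS1 (chr16:70289660-70289719, minus strand): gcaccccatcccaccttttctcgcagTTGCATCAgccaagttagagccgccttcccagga
CARS1 (chr11:3057392-3057451, minus strand): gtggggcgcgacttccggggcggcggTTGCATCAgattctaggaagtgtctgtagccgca
IARS1 (chr9:92293677-92293736, minus strand): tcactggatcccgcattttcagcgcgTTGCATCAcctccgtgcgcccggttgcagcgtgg
NARS1 (chr18:57621789-57621848, minus strand): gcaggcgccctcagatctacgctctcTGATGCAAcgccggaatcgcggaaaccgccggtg
TARS1 (chr5:33440941-33441000, plus strand): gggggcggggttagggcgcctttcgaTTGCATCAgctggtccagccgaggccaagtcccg
ASNS (chr7:97872443-97872502, minus strand): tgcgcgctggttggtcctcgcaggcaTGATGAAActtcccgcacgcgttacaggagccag
BCAT1 (chr12:24949116-24949175, minus strand): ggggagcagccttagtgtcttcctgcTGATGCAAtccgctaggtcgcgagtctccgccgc
SLC7A1 (chr13:29595648-29595707, minus strand): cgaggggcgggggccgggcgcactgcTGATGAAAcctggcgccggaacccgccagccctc
Of these genes, AARS1 and CARS1 rose, CARS1 with a call lost in 3 leave-out fits (adjusted p = 0.0607 to 0.0698), whereas IARS1 (0.28 ± 0.13), NARS1 (0.56 ± 0.20) and TARS1 (0.19 ± 0.13) were not called. ASNS, asparagine synthetase, rose from 526, 577 and 677 to 2457, 2522 and 2286 (4.10-fold, 3.32 to 5.05, adjusted p = 5.94e-06), while BCAT1, the cytosolic branched-chain aminotransferase, fell from 2251, 2481 and 2964 to 1182, 1158 and 1379 (2.06-fold, 1.68 to 2.53, adjusted p = 0.000387). The element was therefore present in genes that rose, fell and were not called. Among the stable rises of cytosolic synthetases only AARS1 was among the matches. Over all promoters it was in 2.19% of genes called higher and 2.03% of those called lower. A match of these letters is a description of the sequence, not evidence of binding.

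Amino acid transporters of the SLC families were called in 12 of 47 cases, 9 higher and 3 lower, and 11 of these calls were stable. SLC7A1, which imports arginine and lysine, went from 4287, 4336 and 5733 to 13740, 12578 and 12020 (2.69-fold higher, 2.17 to 3.33, adjusted p = 6.07e-05). SLC1A5, a glutamine carrier, rose 2.37-fold (2.00 to 2.81), and SLC1A4, a carrier of serine and alanine, 3.17-fold (2.44 to 4.11). The paralogs of SLC7A1 and SLC7A5 did not all follow: the exchanger SLC7A8 fell from 113, 148 and 103 to 41.4, 47.6 and 48.4 (2.62-fold, 2.06 to 3.32, adjusted p = 0.000142), and the cystine carrier SLC7A11 fell 2.03-fold (1.69 to 2.44). Of the 47 transporters, 23 were in the dimmest 2 quintiles and 0 of those were called. Over all 334 SLC genes the calls were 32 higher and 38 lower (median -0.07), so the excess of higher calls in amino acid carriers was not seen in the superfamily as a whole.

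The respiratory chain and ATP synthase make most of the ATP of aerobic cells, through complexes I to IV and complex V. Subunits of these complexes were lower wherever they were called. The subunits were set by gene name, so a few of the genes counted may not be subunits. Of 74 measured subunits 19 fell and 0 rose, against 7.42% and 9.36% of all genes, and the median was -0.25, with 61 of 74 values below 0. The brightest quintile held 20 of 31 complex I, 19 of 26 complex III and IV and 16 of 17 ATP synthase subunits. Of all clusters in that quintile 28.5% were called, 673 higher and 550 lower of 4290. The number of subunits called was therefore no larger than among bright clusters, and the direction was what stood apart. By complex, 8 of 31 subunits of complex I fell (median -0.28), 5 of 26 of complexes III and IV (median -0.16) and 6 of 17 of ATP synthase (median -0.32). The 19 became 13 to 17 when 1 array was left out. For ATP synthase alone the 6 became 3, 2 and 3 without siALKBH5#3 replicate 2, siALKBH5#3 replicate 3 and siControl replicate 1.

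COX7B, a small subunit of cytochrome c oxidase, had intensities of 6884, 7420 and 6733 in siControl and 3436, 3740 and 3176 with siALKBH5#3 (2.03-fold lower, 1.69 to 2.45, adjusted p = 0.000214). ATP5MC3, which encodes the membrane ring subunit of ATP synthase, had 9333, 8703 and 11244 against 5613, 4550 and 4794 (1.95-fold lower, 1.58 to 2.42, adjusted p = 0.000845). NDUFB2, an accessory subunit of complex I, had 650, 588 and 535 against 345, 359 and 360 (1.66-fold lower, 1.38 to 2.00, adjusted p = 0.00183). All 3 were lower on every siALKBH5#3 array, without overlap. The stable calls of complex I were NDUFB2, NDUFB3, NDUFB4, NDUFA5 and NDUFB5, with log2 fold changes of -0.73 to -0.50. SDHD, a membrane anchor of complex II counted here with the tricarboxylic acid cycle, fell 1.85-fold (1.53 to 2.23).

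Genes of these complexes are short, with a median genomic span of 11974 bases for complex I, 7234 for complexes III and IV and 8107 for ATP synthase against 25888 over all genes. Genomic span moved with direction across the transcriptome. Among genes in the brightest 2 quintiles of signal, 45.8% of the calls in the quintile of shortest span were higher against 61.2% in the quintile of longest span, and the called shares were 24.3% and 31.5%. The part of span in the family counts was not tested.

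Other large protein complexes were counted in the same way. Of 49 cytosolic ribosomal proteins 3 were called, all lower and none stable, the median was -0.09 and the intervals of 40 lay within 1.5-fold. Of 74 mitochondrial ribosomal proteins 7 were lower and 3 higher (median -0.09), and the intervals of 52 lay within 1.5-fold. MRPL40 fell 1.72-fold (1.42 to 2.08) and MRPS18B rose 1.52-fold (1.27 to 1.82). The 10 calls became 6, 6 and 5 without siALKBH5#3 replicate 1, 2 and 3. Of 36 proteasome subunits 3 were called, all lower, and 1 of them, the immunoproteasome subunit PSMB9 (-0.86), was stable. Among the 8 subunits of the chaperonin CCT 0 were called, with log2 fold changes between -0.14 and 0.32.

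Sterol synthesis, which shares its SREBP regulators with fatty acid synthesis, had 15 of 18 genes lower and 0 higher, all 15 in fits with any array left out, at a median of -1.17. Fatty acids are built from acetyl units by ACLY, ACACA and FASN, lengthened by ELOVL enzymes and desaturated by SCD and FADS enzymes. In this list of 20 genes 9 fell and 1 rose, and all 10 calls were stable. SCD, which makes oleate, had intensities of 31834, 35655 and 27962 in siControl and 9235, 8804 and 7568 with siALKBH5#3 (3.72-fold lower, 3.06 to 4.52, adjusted p = 5.94e-06). Its paralog SCD5 was the gene that rose, from 4366, 3896 and 3633 to 6634, 9880 and 6948 (1.95-fold, 1.52 to 2.49, adjusted p = 0.00197). The SCD paralogs thus moved in opposite directions, each without overlap of the groups. ACSS2, which makes acetyl-CoA from acetate, fell 3.15-fold (2.48 to 4.00), ELOVL6 2.68-fold (2.26 to 3.17) and FASN 2.26-fold (1.86 to 2.74). The oxidation of fatty acids was called less stably, with 7 of 20 lower and 1 higher but only 2 stable calls, ACADM (-0.81) and DECR1 (-0.73). Those 8 calls became 2, 4, 4 and 5 without siALKBH5#3 replicate 2, siALKBH5#3 replicate 3, siControl replicate 1 and siControl replicate 2.

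Several families of enzymes and transporters that handle reactive and foreign compounds were examined, and most of their members were not called. Of 19 UDP-glucuronosyltransferases and sulfotransferases 2 were lower and 0 higher (median 0.04). Of 11 aldo-keto reductases, which reduce carbonyls with NADPH, 6 fell and 0 rose, and every called member lay in the brightest 2 quintiles. AKR1B10 went from 10921, 11442 and 9167 to 3085, 3276 and 3057 (3.33-fold lower, 2.72 to 4.09, adjusted p = 1.43e-05), and AKR1C1 fell 2.65-fold (2.18 to 3.22). The AKR1C genes are near-identical in sequence, so their signals may share transcripts. Of 39 ABC transporters 7 fell and 0 rose, 6 of them stable, among them the cholesterol exporter ABCA1 (2.34-fold lower, 1.95 to 2.81) and ABCA4 (2.06-fold lower, 1.68 to 2.54), and 18 of the 39 lay in the dimmest 2 quintiles with 0 called. The membrane glutathione transferases MGST1, MGST2 and MGST3 fell, with log2 fold changes of -0.51 ± 0.11, -0.80 ± 0.11 and -0.64 ± 0.14, and were the only 3 called of 19 glutathione transferases. The called shares of ABC transporters and glutathione transferases, 17.9% and 15.8%, were close to the 16.8% of all genes. All of these calls were lower, however, and 7.42% of all genes were called lower. The calls lay in the brightest 2 quintiles, in 7 of 12 ABC transporters and 3 of 10 glutathione transferases there.

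Aldehyde dehydrogenases and cytochromes P450 held members that went opposite ways. ALDH3B2 went from 914, 1052 and 868 to 214, 249 and 223 (4.13-fold lower, 3.41 to 5.00, adjusted p = 4.07e-06), whereas ALDH1A3, which makes retinoic acid, went from 10878, 11053 and 13290 to 19320, 17132 and 16918 (1.52-fold higher, 1.26 to 1.83, adjusted p = 0.00603). In the P450 family CYP4F3 and CYP4F11, which hydroxylate long-chain fatty acids, fell 2.80-fold (2.36 to 3.31) and 2.03-fold (1.72 to 2.41). CYP1B1, a target of the aryl hydrocarbon receptor, rose from 935, 1070 and 1090 to 2630, 2561 and 2658 (2.54-fold, 2.06 to 3.14, adjusted p = 8.03e-05), and the dim CYP1A1 rose 1.57-fold (1.24 to 1.98, adjusted p = 0.0141). The groups did not overlap for these genes. The family had 8 members lower and 3 higher of 50, which became 7 calls in all without siControl replicate 1.

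Zinc transporters, S100 proteins and the circadian clock held stable falls of single members. SLC39A9, a zinc importer of the ZIP family, went from 5932, 4212 and 5403 to 1712, 2078 and 1600 (2.87-fold lower, 2.29 to 3.60, adjusted p = 5.61e-05), and its paralog SLC39A14 rose 1.64-fold (1.37 to 1.96). Of 21 S100 proteins, small calcium-binding proteins, 6 fell and 0 rose, 4 of them stable: S100A4 (-1.41 ± 0.15), S100A14 (-0.92 ± 0.14), S100A6 (-0.81 ± 0.14) and S100A2 (-0.77). Of 20 clock genes 6 fell, all stable, and 1 rose. PER3, a repressor of the clock, went from 873, 1161 and 944 to 208, 280 and 259 (3.99-fold lower, 3.19 to 4.98, adjusted p = 1.03e-05). CIART, DBP, BHLHE41, CLOCK and BHLHE40 fell, with log2 fold changes of -1.30, -1.24, -0.80, -0.68 and -0.68. All samples were taken at a single time, so phase and level of clock transcripts cannot be told apart.

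The largest family measured, the ZNF genes, which are mostly DNA-binding repressors with C2H2 zinc fingers, leaned upward. Of 482 ZNF genes 49 were higher and 6 lower, 10.2% and 1.24%, so that 89.1% of the calls were higher. The share called higher was close to the 9.36% of all genes, and it was the share called lower, against 7.42%, that stood further from the background. The median was 0.05, with 278 of 482 values above 0. The calls became 35 without siALKBH5#3 replicate 2, and 27 higher and 3 lower were stable. Chromosome 19 carries 233 of these genes in clusters, and there 13 were higher and 5 lower, while on other chromosomes 36 of 249 were higher and 1 was lower. ZNF704 went from 62.9, 96.2 and 106 to 214, 272 and 206 (2.66-fold higher, 2.01 to 3.52, adjusted p = 0.000403), and ZNF75A and ZNF165 rose 2.06-fold (1.61 to 2.64) and 2.03-fold (1.60 to 2.57). ZNF488 fell from 170, 184 and 148 to 94.3, 86.7 and 60.7 (2.10-fold, 1.65 to 2.69, adjusted p = 0.000986). The arrays of the groups did not overlap for these 4 genes. Members of this family share sequence, and signals of close paralogs cannot be told apart here.

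Co-chaperones with a J domain, which bring clients to HSP70, were called in 16 of 41 cases. Of the DNAJ genes 14 rose and 2 fell, and 11 of the rises and 1 fall were stable. DNAJB2 went from 398, 430 and 260 to 920, 1042 and 939 (2.72-fold higher, 2.01 to 3.69, adjusted p = 0.00057), and DNAJC25 rose 2.10-fold (1.66 to 2.67). DNAJC19, a member of the inner mitochondrial membrane, fell from 1697, 1547 and 1693 to 1017, 1016 and 1086 (1.58-fold, 1.32 to 1.90, adjusted p = 0.00294). The groups did not overlap for DNAJB2 or DNAJC19. Cytosolic heat shock chaperones had 6 of 17 higher and 0 lower, but 2 of these were stable, DNAJA1 (0.65) and CHORDC1 (0.66 ± 0.11), and the 6 became 2 and 3 without siALKBH5#3 replicate 2 and 3. Of 48 DEAD and DEAH box helicases 7 rose and 2 fell, with 5 stable rises, of which DHX33 was the furthest up (2.02-fold, 1.62 to 2.52). The called share of these helicases, 18.8%, was close to the 16.8% of all genes. In a list of 21 genes around the removal of poly(A) tails, 2 rose, 4 fell and 15 were not called (median -0.02). The called share was 28.6%, against 16.8% of all genes. Among them the deadenylase subunits CNOT8 and CNOT7, which trim poly(A) tails, fell, with log2 fold changes of -0.91 ± 0.16 and -0.82 ± 0.16. The decapping scaffold EDC4 rose by 0.98 ± 0.20.

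Signalling lists differed in direction. The type I interferon list had 2 of 36 genes higher and 7 lower (median -0.18), calls that became 5, 4 and 5 without siALKBH5#3 replicate 3, siControl replicate 1 and siControl replicate 2, and the list of ERK feedback and immediate early genes had 4 of 32 higher and 6 lower (median -0.04). In the Hippo pathway, whose kinases hold back the coactivator YAP, 13 of 28 pathway members and YAP targets rose and 2 fell (median 0.38), with 10 rises and 1 fall stable. AMOT and AMOTL2 of the same list matched no cluster by symbol and are not in these counts. The paper lists AMOT among the genes lower with siALKBH5#1 and siALKBH5#3. The YAP target CCN1 went from 941, 858 and 1081 to 2128, 2216 and 2161 (2.27-fold higher, 1.87 to 2.75, adjusted p = 9.89e-05) and ANKRD1 from 122, 183 and 145 to 452, 500 and 595 (3.47-fold, 2.71 to 4.44, adjusted p = 3.61e-05). TEAD4, a DNA-binding partner of YAP, rose 2.52-fold (1.96 to 3.24) and the kinase LATS2 2.24-fold (1.81 to 2.78), while the receptor kinase AXL, also a YAP target, fell 1.67-fold (1.38 to 2.01). Of 34 genes of TGF-beta and activin signalling 11 rose, 9 of them stably, and 1 fell. INHBA, the activin A subunit, went from 6133, 6075 and 5413 to 12857, 16692 and 17605 (2.66-fold higher, 2.14 to 3.30, adjusted p = 7.32e-05), and the target ID3 rose 2.50-fold (1.96 to 3.18).

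In the IGF system 9 of 19 genes rose and 1 fell, with 5 rises and the fall stable, and the 10 calls became 6 without siALKBH5#3 replicate 2 or siControl replicate 2. The binding proteins, which hold IGFs away from the receptor, did not move together. IGFBP5 went from 45.4, 30.3 and 32.0 to 305, 224 and 151 (6.16-fold higher, 4.22 to 9.00, adjusted p = 4.77e-05) and IGFBP3 from 21067, 20840 and 18000 to 48637, 51752 and 56504 (2.62-fold, 2.18 to 3.16, adjusted p = 3.18e-05). IGFBP2 went from 754, 768 and 554 to 245, 270 and 265 (2.63-fold lower, 2.09 to 3.33, adjusted p = 0.000119). None of these 3 genes had overlapping groups. STC2, which inhibits the IGFBP protease PAPPA, rose 2.93-fold (2.38 to 3.61), and PAPPA rose by 1.04 on the log2 scale.

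The family of MAP kinase phosphatases was set by gene name, and not all of its members act on MAP kinases. Of its 23 genes 8 were called, 6 higher and 2 lower, all stable. DUSP6, which is specific for ERK, went from 1907, 1711 and 1668 to 605, 622 and 430 (3.23-fold lower, 2.59 to 4.03, adjusted p = 2.94e-05). DUSP10, which prefers JNK and p38, went from 561, 447 and 436 to 1636, 1621 and 1516 (3.33-fold higher, 2.69 to 4.12, adjusted p = 1.99e-05), and DUSP1 went from 209, 197 and 293 to 727, 731 and 754 (3.21-fold higher, 2.57 to 4.01, adjusted p = 3.01e-05). The direction was thus opposite for DUSP6 and for DUSP1 and DUSP10, without overlap on any of them. At cell contacts, CLDN1 rose from 16862, 16742 and 20345 to 36186, 38652 and 37524 (2.09-fold, 1.75 to 2.49, adjusted p = 0.000109) while CLDN12 fell 2.50-fold (1.98 to 3.16), out of 24 claudins with 1 called higher and 3 lower. The called share of claudins, 16.7%, was close to the 16.8% of all genes. Of 29 tetraspanins 4 rose and 5 fell, from TSPAN12 (-1.49 ± 0.16) to TSPAN17 (0.83). Of 25 transcription factors of the KLF and SP families 3 were called higher and 1 lower. The called share, 16%, was close to the 16.8% of all genes. Among them KLF4, KLF6 and KLF11 rose by 1.11, 0.72 and 0.80 on the log2 scale.

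The plot of 20 families and lists sets these beside families with few calls. Of 349 olfactory receptors, which sense odorants and are silent in most tissues, 4 were called (1.15%), all lower, and 336 lay in the dimmest 2 quintiles. OR51B4 and OR2T8 were the stable calls of that family, each at -0.82 on the log2 scale. The 4 calls became 2 without siALKBH5#3 replicate 1 or siControl replicate 1 and 9 without siControl replicate 2 or 3. None of 24 taste receptors, 29 protocadherins, 26 FGF ligands and receptors or 15 kallikreins was called, and most lay in the dimmest 2 quintiles (22, 21, 15 and 8 genes). The replication-dependent histones differed from these, since 33 of 61 were in the brightest quintile and 0 were called, with the intervals of 51 within 1.5-fold and a median of -0.09. Histone mRNAs of this class lack a poly(A) tail.

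**Figure D3:**
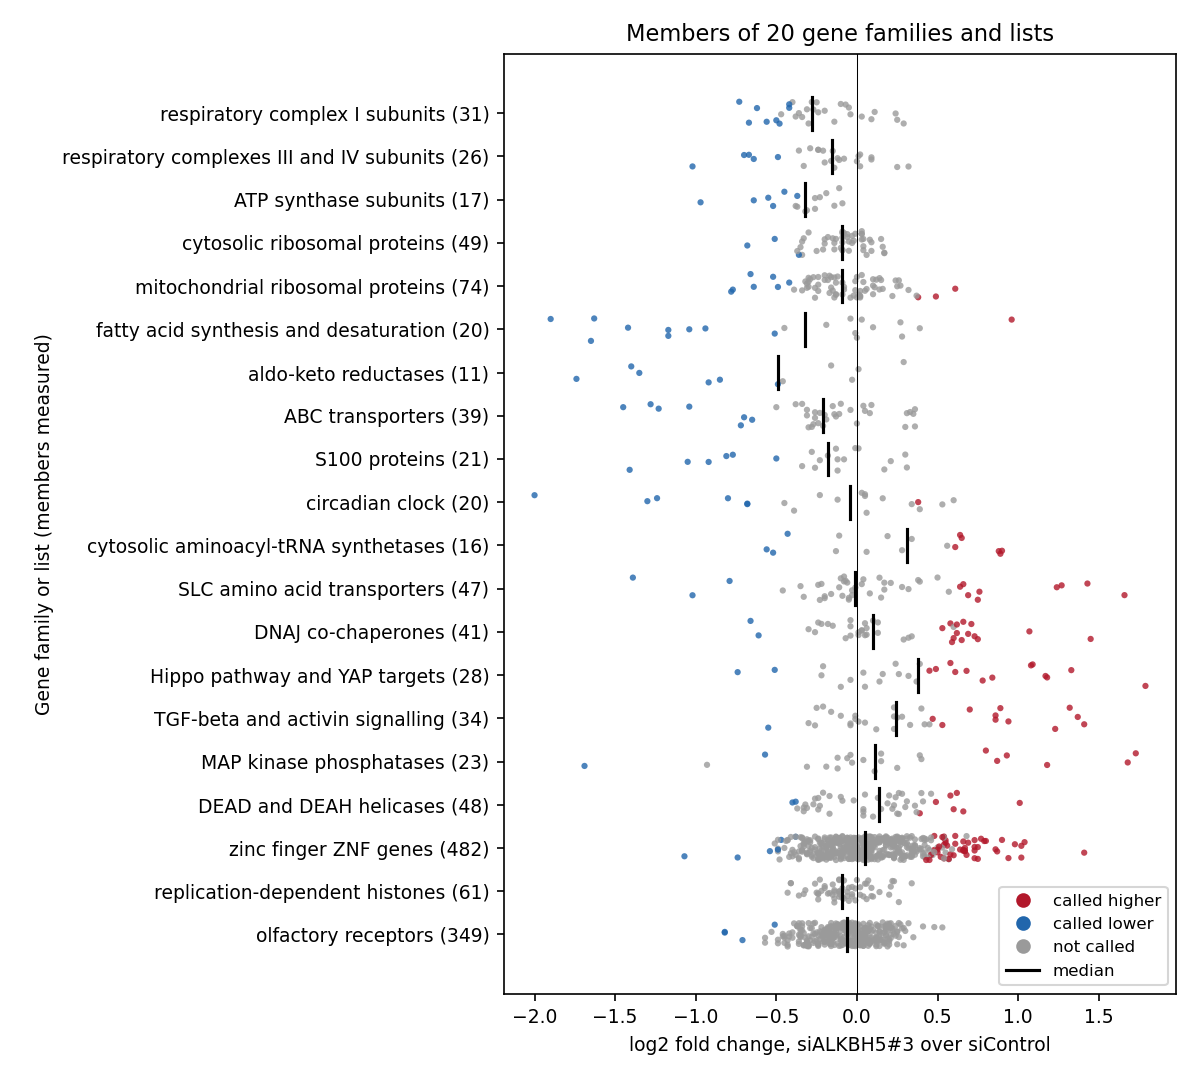
Log2 fold change (siALKBH5#3 over siControl) of every measured member of 20 gene families and lists, with called members in colour, the others in grey and a bar at each median; the number measured stands in brackets. ATP synthase subunits all lie below 0, the ZNF calls lie mostly above 0, and no replication-dependent histone is called.

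Position and promoter composition were then used as groupings that no family list had set. Promoters were divided into quintiles by their content of G and C, over the 14250 genes with a RefSeq promoter. From the quintile of lowest to the quintile of highest G+C (medians 44.3%, 56.7%, 63%, 69.0% and 76.3%), 4.57%, 6.45%, 8.77%, 12% and 16.4% of genes were called higher and 5.90%, 8.91%, 8.45%, 8.40% and 6.44% lower. The share of calls that were higher was 43.6% in the lowest quintile and 71.9% in the highest, and 46.8% and 72.1% when only genes in the brightest 2 quintiles of signal were taken. Median intensity differed between these quintiles, at 26.3 in the lowest and 308 in the highest. The composition of the probes and of the transcripts was not analysed here, and its part in this difference was not tested.

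By chromosome, the share of calls that were higher was 79.4% on chromosome 16 (108 higher and 28 lower of 744 genes), 72.5% on chromosome 22 (50 and 19 of 398) and 25.5% on chromosome X (24 and 70 of 709), against 55.9% over all clusters with a symbol. With each of the 6 arrays left out in turn the share was 75.2% to 78.0% on chromosome 16, 65.6% to 75.0% on chromosome 22 and 24.6% to 30.8% on chromosome X, and with quantile normalization it was 73.9%, 64.6% and 24.5%. Mean promoter G+C was 66.0% on chromosome 16, 66.4% on chromosome 22 and 59.3% on chromosome X. Chromosome 6 also had a mean of 59.3%, and 53.7% of its calls were higher. The part of promoter G+C in the differences between chromosomes was not tested. The plot of calls by promoter G+C and by chromosome shows both groupings.

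**Figure D4:**
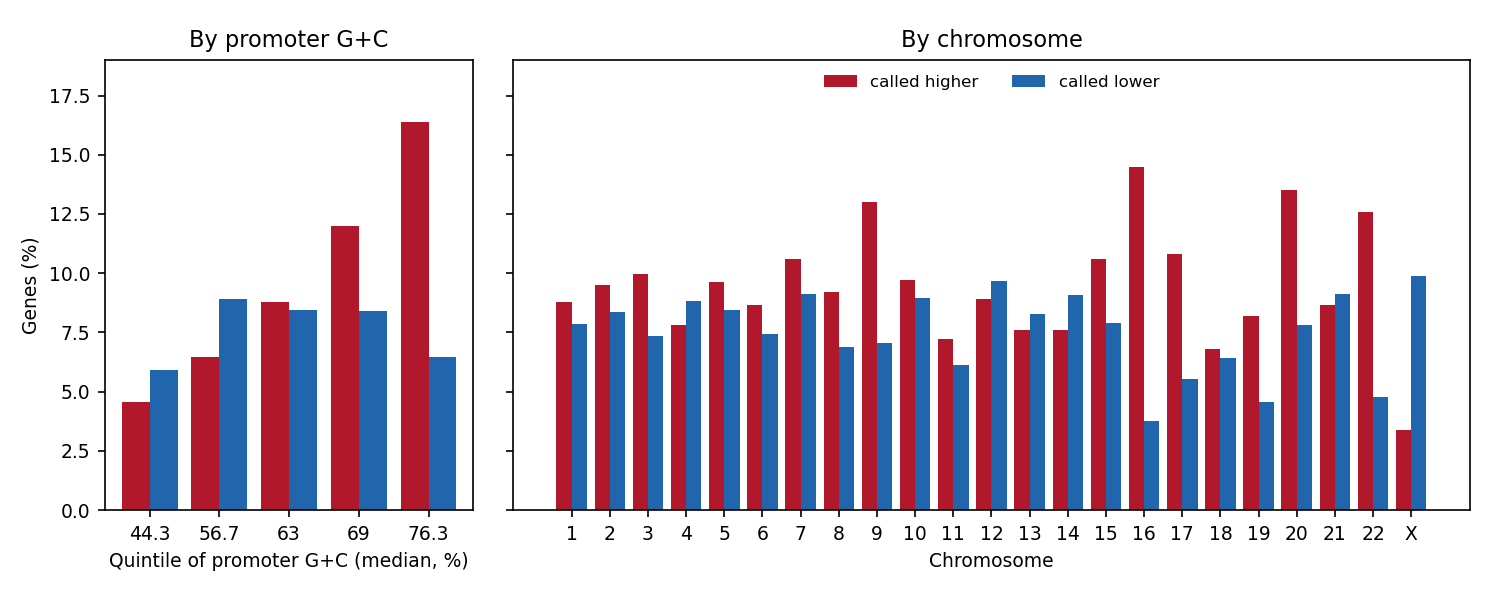
Share of genes (%) called higher or lower with siALKBH5#3, by quintile of promoter G+C content (left, median of each quintile in %) and by chromosome (right). The share called higher was 4.57% in the lowest quintile of G+C and 16.4% in the highest, and chromosome X had more calls lower than higher.

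The siALKBH5#1 arrays, made with another siRNA against ALKBH5, were used to see whether some of these family changes differed between the siRNAs. The siALKBH5#1 comparison used the same 3 siControl arrays, and the direct test between the siRNA groups used the same siALKBH5#3 arrays, so these are not independent of the results above. Against siControl, 8.80% of genes were called with siALKBH5#1 (4.98% higher and 3.82% lower), and between the siRNA groups 20.6% were (10.3% higher and 10.3% lower with siALKBH5#3). Of the 74 respiratory chain and ATP synthase subunits 4 were higher and 2 lower with siALKBH5#1 (median 0.10), and directly compared 34 were lower and 1 higher with siALKBH5#3. Of the 482 ZNF genes 9 were higher and 15 lower with siALKBH5#1, and in the direct comparison 69 were higher and 12 lower with siALKBH5#3. Of the DNAJ genes 0 were called with siALKBH5#1, and 11 were higher and 4 lower in the direct comparison. For the cytosolic synthetases the direct comparison called 2 higher and 2 lower, and 5 rose with siALKBH5#1. Of 18 sterol synthesis genes 0 were called with siALKBH5#1 (median 0.18), and 17 were lower directly. Fatty acid synthesis had 3 higher and 2 lower with siALKBH5#1, and 2 higher and 9 lower directly. The Hippo list had 2 higher and 7 lower, and 16 higher and 4 lower directly. Of the aldo-keto reductases 2 were higher with siALKBH5#1, and 6 were lower directly. The remaining families are not compared here.

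Single genes differed in whether the siRNAs separated them. AGO2 stood at 0.27 ± 0.15 with siALKBH5#1 (adjusted p = 0.304) and differed by 1.39 ± 0.15 between the siRNA groups (adjusted p = 4.76e-05). PER3 stood at 0.04 ± 0.15 (adjusted p = 0.892), a direct difference of -2.04 ± 0.15, and CDKN2A at 0.22 ± 0.16 (adjusted p = 0.450), a direct difference of -1.83 ± 0.16. ASNS and GARS1 rose with siALKBH5#1 as well (1.63 ± 0.14 and 0.73 ± 0.12), and their direct differences of 0.40 ± 0.14 and 0.18 ± 0.12 did not pass (adjusted p = 0.0623 and 0.383).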

How the data were processed

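RNA of 9 cultures (siControl, siALKBH5#1 and siALKBH5#3, 3 arrays each) was hybridised to human Clariom S arrays. The authors deposited normalized intensity values on a linear scale. RMA, Affymetrix Expression Console and hg38 are listed in the processing notes of the submitters, while the study's methods name another company's analysis tool, so the exact step that gave these values is not settled. Here the deposited intensity was taken to log2 without further scaling. Of 24351 entries 2903 controls were left out and 21448 clusters tested, 17709 of them with 1 symbol (17687 genes) and 3739 with none; for the 20 genes with more than 1 cluster the brightest was used. limma 3.58.1 in R 4.3.3 fitted all 9 arrays (lmFit, eBayes, 6 residual degrees of freedom, prior 5.79), with Benjamini-Hochberg adjustment over all clusters and a threshold of 0.05. The fit was tested on simulated data. Error terms after ± are standard errors of the log2 fold change unless marked SD. Intervals cover the spread between arrays, and 3 arrays a group limit the precision. Same-numbered arrays did not pair (r = -0.0205, 0.0888 and -0.141 of deviations from group means).

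Genes were named as the largest changes and brightest members of each quintile and list, and paralogs that moved the other way, and some others were chosen after their values were seen. The members and lists were chosen with earlier results of these data known. Listed genes that matched no cluster by symbol were left out of the counts. Alternatives were other normalizations, a prior with intensity trend, a larger offset, the dimmer clusters left out, only 6 arrays, a replicate block, the methods' t-test and each array left out.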

Additional observations from a re-analysis of the deposited data

Results flagged for a closer look

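Of the genes named above, 16 passed the threshold in opposite directions with the 2 siRNAs against the same 3 siControl arrays, and the difference itself, siALKBH5#3 minus siALKBH5#1, passed as well by limma. All values are log2 differences, and which of the siRNAs' other targets, if any, bear on them was not tested.

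Higher with siALKBH5#3 and lower with siALKBH5#1 were 4 genes of the Hippo and TGF-beta lists. CCN1 stood at 1.18 with siALKBH5#3 and -0.87 with siALKBH5#1 (difference 2.05 ± 0.13). ID3 stood at 1.32 with siALKBH5#3 and -1.17 with siALKBH5#1 (difference 2.49 ± 0.16). INHBA stood at 1.41 with siALKBH5#3 and -0.52 with siALKBH5#1 (difference 1.92 ± 0.14). LATS2 stood at 1.17 with siALKBH5#3 and -0.88 with siALKBH5#1 (difference 2.05 ± 0.14).

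Lower with siALKBH5#3 and higher with siALKBH5#1 were the other 12. ABCA4 stood at -1.04 with siALKBH5#3 and 1.02 with siALKBH5#1 (difference -2.06 ± 0.14). ACSS2 stood at -1.65 with siALKBH5#3 and 0.74 with siALKBH5#1 (difference -2.40 ± 0.16). AKR1B10 stood at -1.74 with siALKBH5#3 and 0.81 with siALKBH5#1 (difference -2.55 ± 0.13). AXL stood at -0.74 with siALKBH5#3 and 0.62 with siALKBH5#1 (difference -1.36 ± 0.12). CIART stood at -1.30 with siALKBH5#3 and 0.82 with siALKBH5#1 (difference -2.12 ± 0.18). CYP4F11 stood at -1.02 with siALKBH5#3 and 0.70 with siALKBH5#1 (difference -1.72 ± 0.11). CYP4F3 stood at -1.48 with siALKBH5#3 and 1.31 with siALKBH5#1 (difference -2.79 ± 0.11). DUSP6 stood at -1.69 with siALKBH5#3 and 0.93 with siALKBH5#1 (difference -2.63 ± 0.15). S100A2 stood at -0.77 with siALKBH5#3 and 0.89 with siALKBH5#1 (difference -1.66 ± 0.12). S100A4 stood at -1.41 with siALKBH5#3 and 0.66 with siALKBH5#1 (difference -2.07 ± 0.15). SLC7A11 stood at -1.02 with siALKBH5#3 and 0.51 with siALKBH5#1 (difference -1.53 ± 0.12). SLC7A8 stood at -1.39 with siALKBH5#3 and 1.49 with siALKBH5#1 (difference -2.88 ± 0.16).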

How the results depend on the processing

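The 3381 calls (1870 higher, 1511 lower) became 1302 (730 and 572) with the methods' t-test after Benjamini-Hochberg adjustment, and 1414 (818 and 596) at that test's own thresholds of fold and unadjusted p. Leaving out 1 array gave 2320 to 3235 calls in all, 1269 to 1784 higher, 1051 to 1451 lower, 1936 to 2269 calls over 1.5-fold, 36 to 100 in the dimmest quintile, 125 to 238 in the second quintile, 441 to 648 in the third quintile, 877 to 1126 in the fourth quintile and 841 to 1124 in the brightest quintile. Adding 16 to the intensity gave 28 calls in the dimmest quintile, and a prior with intensity trend and robust fitting gave 1865 in the brightest; the cause was not tested. With a replicate block 2994 clusters were called, 2887 of them among the 3381, and since same-numbered arrays did not pair this is given only as an alternative. Quantile normalization called 3373, 3071 of them shared, with 51.5% higher against 55.3%. With only the 6 arrays of the comparison in the fit, 2854 clusters were called, 1607 higher and 1247 lower. Of 120 named genes called, 112 were called in every setting that tested them apart from the methods' t-test. The setting without the dimmer clusters left out the dim genes. Another 8 of the 120 lost the call in some setting, and 0 changed direction while called. Many of these genes were named for large changes or after their values were seen, so their share does not describe the calls in general. Among all genes with a symbol, 2968 were called in the main fit and 1630 were called whichever array was left out. Clusters neither called nor bounded within 1.5-fold made up 25.7%, 36.4%, 39.5%, 26.4% and 13% of the quintiles from the dimmest to the brightest, and signal over background was not measured.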
